A study of Mus musculus with 11 samples.

Results

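Rcan1, Ska2, Kifc3, Tnfrsf12a, Pawr and Msrb3 were the genes with higher expression in all 4 mouse livers after 3 days of YAP induction than in any control liver that also passed the threshold across all genes. They are 6 of the 20889 genes in the table and 6 of the 14240 that passed the filter on low values (at least 0.5 eRPKM in at least 3 libraries), and all 6 passed it. They were chosen on their values at 3 days against control, so that comparison is given here as a description with no test of these genes.

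The series used mice on a C57BL/6 background with a ROSA26-rtTA-IRES-EGFP allele, and whole livers were profiled by bulk RNA-seq, 1 library per sample. The 4 control livers are labelled WT and received doxycycline food for 7 days, and no source used here says whether they carried the Cre described below. The 4 livers at 3 days and the 3 livers at 7 days carried tetYAP in addition and received doxycycline food for 3 and 7 days. In this cross the transgene encodes YAP S127A, and the rtTA activator needs an albumin-driven Cre, so induction was directed to cells that express albumin. Ages are not given in the labels, and RNA came from homogenized liver, which mixes hepatocytes with bile duct, endothelial, stellate and immune cells. In such bulk samples, fewer cells of a type and less RNA per cell cannot be told apart. Values are eRPKM, that is exon reads of a gene divided by its length in kilobases and by the size of the library.

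YAP is a transcriptional coactivator of the Hippo pathway. The kinases of the pathway phosphorylate YAP and keep it out of the nucleus, and the S127A mutation removes one of the phosphorylated serines. In the nucleus YAP binds DNA through the TEAD factors, often beside AP-1, and Cyr61 and Ctgf, which encode secreted matricellular proteins, are its most used target genes. In the liver, active YAP is known for driving growth and loss of the hepatocyte state.

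The 6 genes have different roles. Rcan1 encodes an inhibitor of the phosphatase calcineurin. Ska2 encodes a subunit of the SKA complex, which holds kinetochores on spindle microtubules in mitosis. Kifc3 encodes a kinesin that moves towards microtubule minus ends and has been placed at adherens junctions. Tnfrsf12a encodes Fn14, the receptor of the cytokine TWEAK. Pawr encodes Par-4, a pro-apoptotic protein that binds WT1 and atypical protein kinase C. Msrb3 encodes a methionine sulfoxide reductase, which repairs oxidized methionine in proteins.

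In the GENCODE M1 annotation of the mm9 genome, Rcan1 lies at chr16:92392198-92466391 on the minus strand, with 2 transcripts that the gene value pools. Ska2, under its older name Fam33a, lies at chr11:86922736-86938137 on the plus strand. Its start is 526 bases from that of Prr11 on the opposite strand, and an intron holds the microRNA gene Mir301. Kifc3 lies at chr8:97623732-97666440 on the minus strand and Tnfrsf12a at chr17:23812414-23814416 on the minus strand. Pawr lies at chr10:107769245-107851447 on the plus strand and Msrb3 at chr10:120218152-120336157 on the minus strand. All 6 are annotated as protein coding.

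The genes were chosen for their rise at 3 days, so that they rose together is no finding. Their promoters were searched for the core letters bound by TEAD factors and by AP-1, the usual DNA partners of YAP. RefSeq windows (GRCm38.p6, a later build than that of the gene positions above) from 250 bases before to 50 bases after the start were at hand for 5 of the 6 genes and for Cyr61. They were not found for Kifc3 and Ctgf. CATTCC, with its complement GGAATG, was the TEAD letters, and TGANTCA, which reads alike on both strands, the AP-1 letters. The 250 bases before the start are shown for the 3 starts with a match, on the coding strand and with the match in capitals.
Ska2, chr11:87109011-87109260, plus strand: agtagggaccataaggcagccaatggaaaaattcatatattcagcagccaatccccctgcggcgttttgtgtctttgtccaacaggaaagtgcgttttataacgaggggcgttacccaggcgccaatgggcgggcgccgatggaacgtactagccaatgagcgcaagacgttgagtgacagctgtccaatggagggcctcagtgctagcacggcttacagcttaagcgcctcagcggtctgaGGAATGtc
Rcan1, second start, chr16:92400079-92400328, minus strand: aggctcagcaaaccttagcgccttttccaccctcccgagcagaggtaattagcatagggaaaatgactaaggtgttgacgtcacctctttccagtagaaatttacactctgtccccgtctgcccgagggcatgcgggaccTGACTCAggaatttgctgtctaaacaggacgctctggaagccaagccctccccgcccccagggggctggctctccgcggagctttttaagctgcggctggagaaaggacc
Cyr61, chr3:145649986-145650235, minus strand: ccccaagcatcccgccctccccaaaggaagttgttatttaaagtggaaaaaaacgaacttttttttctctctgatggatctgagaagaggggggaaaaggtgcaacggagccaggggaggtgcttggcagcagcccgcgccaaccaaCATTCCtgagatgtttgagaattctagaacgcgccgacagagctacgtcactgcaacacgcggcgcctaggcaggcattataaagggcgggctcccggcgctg

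The TEAD letters began 8 bases before the start of Ska2 and 103 bases before that of Cyr61. The AP-1 letters began 110 bases before the second start of Rcan1. Neither motif was in the windows of the first Rcan1 start, Tnfrsf12a, Pawr or Msrb3, which says only that these letters are not in those 300 bases. Among all 32851 RefSeq windows of this length, 14.7% held the TEAD letters and 7.81% the AP-1 letters, so single matches of this kind are common.

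Depth ran from 1250317 to 5492182 reads on genes in control livers, from 2658114 to 3679166 at 3 days and from 5309573 to 5937585 at 7 days, and was not balanced between the groups. The 3-day liver 1 was the shallowest of its group. Hepatocyte markers (Alb, Ttr, Apoa1, Cps1, Asgr1, Hnf4a and Cyp2e1) summed to between 1040 and 4040 eRPKM across the livers, so the hepatocyte genes of the labelled tissue were present in all of them. The median sum was 2200 eRPKM in control, 1820 in 3-day and 1180 in 7-day livers. At 7 days 3 of the 7 markers fell (median log2 fold change of the 7 markers -0.88), beside 5.77% of all tested genes. After quantile normalization 2 of the 7 fell and their median was -0.02, so this fall depended on the scaling. Yap1 itself stood at 13.9 to 21.1 eRPKM in control livers, 15.3 to 19.3 at 3 days and 17.4 to 19.0 at 7 days. Reads of the transgene were not analysed here. In 2 control and 2 3-day livers Xist exceeded Ddx3y, as it did in all 3 livers at 7 days, so sex was not balanced either. No source used here says whether livers of a group shared a litter or cage, so the p-values measure the spread between these samples.

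At 3 days the members stood 2.63 to 4.24-fold above the control mean. By group means the order was Ska2, Rcan1, Kifc3, Tnfrsf12a, Pawr and Msrb3. On the log2(eRPKM + 0.5) scale, which was used for all fold changes below and which understates changes of low genes, Rcan1 came first with 2.01 (SE 0.26) and Msrb3 last with 1.36 (SE 0.14). The threshold was a limma Benjamini-Hochberg adjusted p under 0.01 with an absolute log2 fold change above 0.5, and these 6 were all the genes past it, 0.0421% of those tested. None fell, while 1119 genes were higher and 599 lower at an unadjusted p under 0.05. Having every 3-day liver above every control was less rare, with 482 genes or 3.38% of those tested.

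The edge of the set was close. Just inside it stood Rcan1 and Pawr, with limma adjusted p of 0.00883 each. Just outside stood Ccr3, a chemokine receptor gene, with a log2 fold change of 2.32 and an adjusted p of 0.0116, then Cyr61 with 1.99 and 0.0117 and Ajuba, an adaptor protein of the Hippo pathway and of cell junctions, with 2.25 and 0.0117. They were followed by Pqlc1 with 0.90 and 0.0144, Slc45a3 with 1.53 and 0.0162, and Tuba1b, an alpha tubulin, with 0.90 and 0.0162. All of these had the 4 livers at 3 days above all controls as well. The count also rested on the model, since limma fitted on the control and 3-day livers alone called none of the genes (1360 at an unadjusted p under 0.05). Without 3-day liver 1 limma called 54 genes, all 6 members among them. Without 3-day liver 2, 3-day liver 4, control liver 2 or any single 7-day liver it called 0 (1263 to 1786 at an unadjusted p under 0.05), without control liver 3 it called 1 gene, a fall and none of the 6. Without 3-day liver 3 it called 2, 1 of them among the 6, without control liver 4 it called 3, 2 of them among the 6, and without control liver 1 it called 5, also with 2 of the 6.

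**Figure D1:**
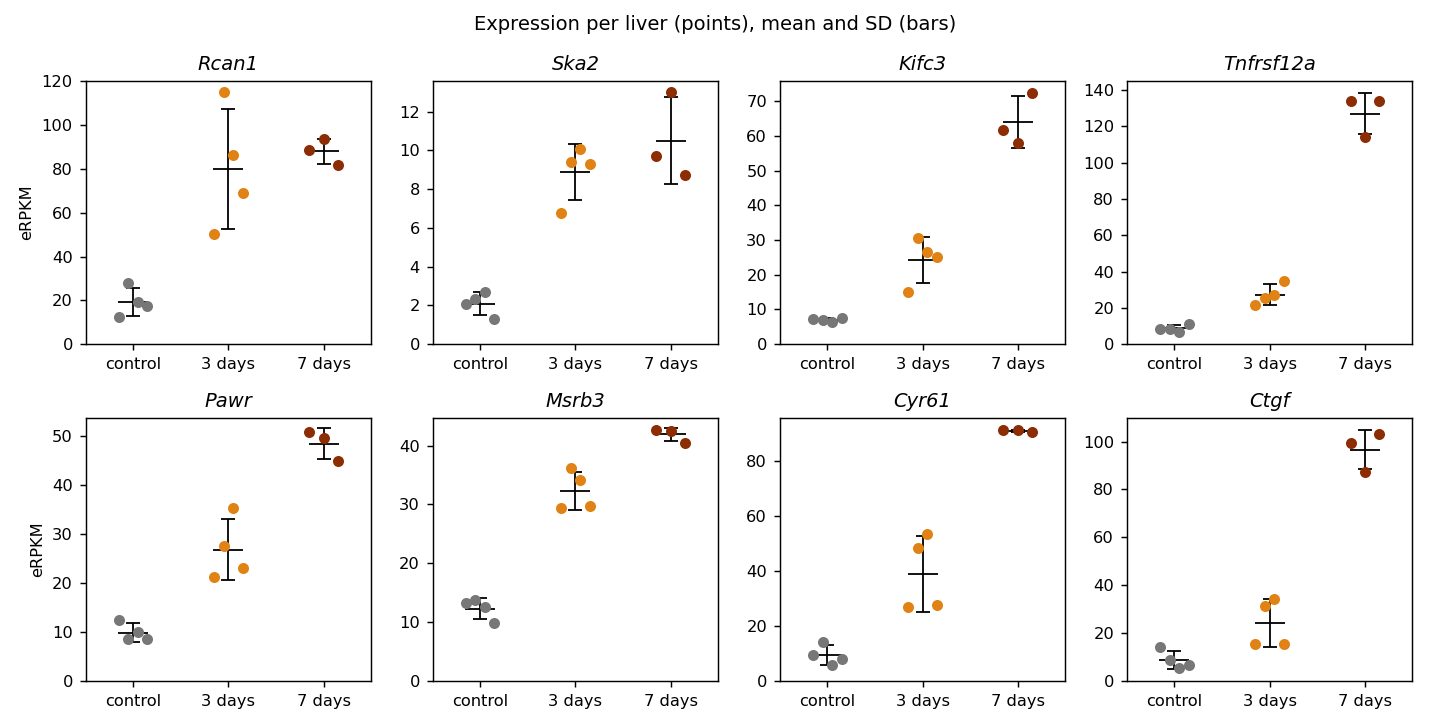
Expression in eRPKM (vertical axis, each panel with its own scale from 0) of the 6 genes, Cyr61 and Ctgf in each control, 3-day and 7-day liver (points, in the order of their replicate numbers), with the group mean and SD (bars). Rcan1 and Ska2 at 7 days overlap their 3-day values, while Kifc3, Tnfrsf12a and Pawr lie above them.

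Rcan1, the calcineurin inhibitor, had 12.5, 27.9, 19.3 and 17.6 eRPKM in control livers 1 to 4. At 3 days the livers had 50.3, 115, 86.4 and 69.0 eRPKM in the same order, and at 7 days they had 88.6, 93.5 and 81.9 eRPKM. The 3-day group was the most spread, with a 2.28-fold range that took in all 3 values at 7 days. The 7-day livers exceeded control by a log2 fold change of 2.21 (SE 0.28; limma adjusted p = 6.85e-05). From 3 to 7 days it was 0.20 (95% interval -0.40 to 0.80; limma adjusted p = 0.601), smaller than the spread between livers. The group means were 80.0 eRPKM for 3-day livers (SD 27.3, n = 4) and 88.0 for 7-day livers (SD 5.79, n = 3).

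Ska2, the kinetochore gene, was the lowest of the 6 in every liver. Control livers 1 to 4 had 2.07, 2.34, 2.68 and 1.29 eRPKM, which came from 5 to 40 reads. At 3 days they had 6.77, 9.42, 10.1 and 9.28 eRPKM and at 7 days 9.69, 13.0 and 8.74 eRPKM. The highest control and the lowest 3-day liver were 2.53-fold apart, a gap that the choice of the gene required to be above 1. The 7-day log2 fold change was 2.09 (SE 0.25; limma adjusted p = 5.08e-05). The step from 3 to 7 days was 0.22 (95% interval -0.32 to 0.76; limma adjusted p = 0.511), and 1 of 3 livers at 7 days lay above all 3-day livers. Exons of Gm11491 on the opposite strand cover 10.1% of its exon bases, and the library kit does not keep strand, so reads of the 2 genes cannot be told apart there.

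Kifc3, the minus-end kinesin, varied little among controls, with 7.24, 6.84, 6.27 and 7.52 eRPKM. Livers 1 to 4 at 3 days had 15, 30.7, 26.6 and 25 eRPKM, and livers 1 to 3 at 7 days had 61.8, 58.0 and 72.5 eRPKM. All 3 livers at 7 days lay above every 3-day liver, as they did for 31.3% of all tested genes. That the 3-day livers lay above the controls was set by the choice of the gene. Among the 3-day livers, liver 1 stood apart from the other 3 towards the controls. The 7-day log2 fold change was 3.11 against control (SE 0.21; limma adjusted p = 1.44e-06) and 1.42 against 3 days (SE 0.21; limma adjusted p = 0.000324).

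Tnfrsf12a, the TWEAK receptor gene, changed most by 7 days. It had 8.51, 8.22, 6.68 and 11.3 eRPKM in control livers 1 to 4. By 3 days it reached 21.5, 25.5, 27.3 and 35.0 eRPKM and by 7 days 134, 114 and 134 eRPKM. The 7-day livers again all lay above every 3-day liver, as for 31.3% of all tested genes. The 7-day mean of 127 eRPKM (SD 11.3, n = 3) was 14.7-fold that of controls and 4.66-fold that of the 3-day livers. The log2 fold changes were 3.82 (SE 0.19; limma adjusted p = 2.25e-07) and 2.22 (SE 0.19; limma adjusted p = 1e-05). By adjusted p its rank was 4 among all tested genes in the 7-day comparison with control. Hcfc1r1 on the opposite strand shares 8.10% of its exon bases and averaged 26.9 eRPKM (SD 4.25, n = 4) over controls, 22.2 (SD 5.75, n = 4) over 3-day and 21.8 (SD 2.19, n = 3) over 7-day livers. Its log2 fold change was -0.29 at both times and 0.00 between them, unlike that of Tnfrsf12a.

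Pawr, the gene of Par-4, had 12.5, 8.49, 9.92 and 8.49 eRPKM in control livers 1 to 4. It had 21.3, 27.6, 35.3 and 23.1 eRPKM at 3 days and 50.9, 49.6 and 45.0 at 7 days. Here too the 7-day livers all lay above every 3-day liver, as for 31.3% of all tested genes. The log2 fold change at 7 days was 2.26 against control (SE 0.19; limma adjusted p = 6.14e-06) and 0.87 against 3 days (SE 0.19; limma adjusted p = 0.00482). The latter passed the threshold by a small margin, and an exact permutation test of the difference of group means gave p = 0.0571. It did not pass with median-ratio size factors, with a replicate block, with log2 depth or log2 Xist as a covariate, in the libraries with more Xist than Ddx3y alone, without 3-day liver 1 or 4, or without any single 7-day liver.

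Msrb3, the methionine sulfoxide reductase gene, was the most even of the 6 at 3 and at 7 days. Its values were 13.2, 13.7, 12.5 and 9.83 eRPKM in control livers 1 to 4, then 29.4, 36.1, 34.1 and 29.8 eRPKM at 3 days and 42.6, 42.5 and 40.5 eRPKM at 7 days. Against control, the 7-day log2 fold change was 1.74 (SE 0.15; limma adjusted p = 6.24e-06). The step from 3 to 7 days was 0.37 (95% interval 0.05 to 0.70) and did not pass (limma adjusted p = 0.0695), although all 3 livers at 7 days lay above every 3-day liver (exact permutation p = 0.0286), as they did for 31.3% of all tested genes.

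All 6 genes thus remained above control at 7 days. The 7-day values had no part in the 3-day fold changes that chose the genes, but their spread entered the fit that gave the threshold. The controls entered both comparisons, so a control that happened to be low would raise both. A spread that happened to be small would likewise favour both calls. Each of the 6 passed the threshold, where 18.0% of all tested genes rose and 5.77% fell. Each had 3 of 3 livers above every control, as did 36.7% of all tested genes, and the exact two-sided permutation p was 0.0286, the smallest that 3 livers against 4 allow. The call held for each gene under all 25 alternatives, with log2 fold changes no lower than 1.47 (Msrb3). Markers of other liver cells were read beside this 7-day rise, where 18.0% of all tested genes rose with a median of 0.26. Of the cholangiocyte markers 1 of 6 rose (median log2 fold change 1.02) and of the lymphocyte markers 1 of 6 (median 0.35). Both shares of calls are near that of all tested genes. All 6 cholangiocyte markers had a log2 fold change above 0 (5 after quantile normalization). Of them 5 had an unadjusted p under 0.05 (2 after quantile normalization). The lymphocyte median was -0.14 after quantile normalization. Of the endothelial markers 2 of 6 rose (median 0.60) and of the macrophage markers 4 of 5 (median 1.81). None of 7 stellate and fibroblast markers was called (median -0.16), but after quantile normalization 2 of them fell (median -0.74). The part of these cells in the rise of the 6 genes was not tested. The deposited scaling put the median of all tested genes 0.26 above control at 7 days, against 0.03 with median-ratio size factors and -0.08 after quantile normalization, and all 6 genes lay above that median by more than 1. The calls over all genes were 75.7% rises with the deposited scaling, 60.9% with size factors and 50.5% after quantile normalization.

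What differed among the 6 genes was how much of the 7-day change was there at 3 days. In log2 terms, 3 days gave 91.1% of the 7-day change of Rcan1, 89.4% of Ska2 and 78.5% of Msrb3. It gave 61.6% of that of Pawr, 54.4% of Kifc3 and 41.9% of Tnfrsf12a. Cyr61, at 60.9%, and Ctgf, at 40.5%, lay among the latter. The test of the step itself used the 3-day livers that chose the genes, which could make the step look smaller. Kifc3, Tnfrsf12a and Pawr passed it upwards, as did 14% of all tested genes (5.31% fell) and 65.3% of the genes that rose at 7 days against control. The steps of Kifc3 and Tnfrsf12a passed under all 25 alternatives and that of Pawr under 14 of them. For Rcan1, Ska2 and Msrb3 no alternative gave a call, and the direction of the small steps of Rcan1 and Ska2 depended on the scaling. They were -0.05 and -0.01 when median-ratio size factors were used, and after quantile normalization they were 0.61 (limma adjusted p = 0.117) and -0.27. The share of the Rcan1 change at 3 days moved with it, since quantile normalization gave 1.79 at 3 days and 2.39 at 7 days.

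**Figure D2:**
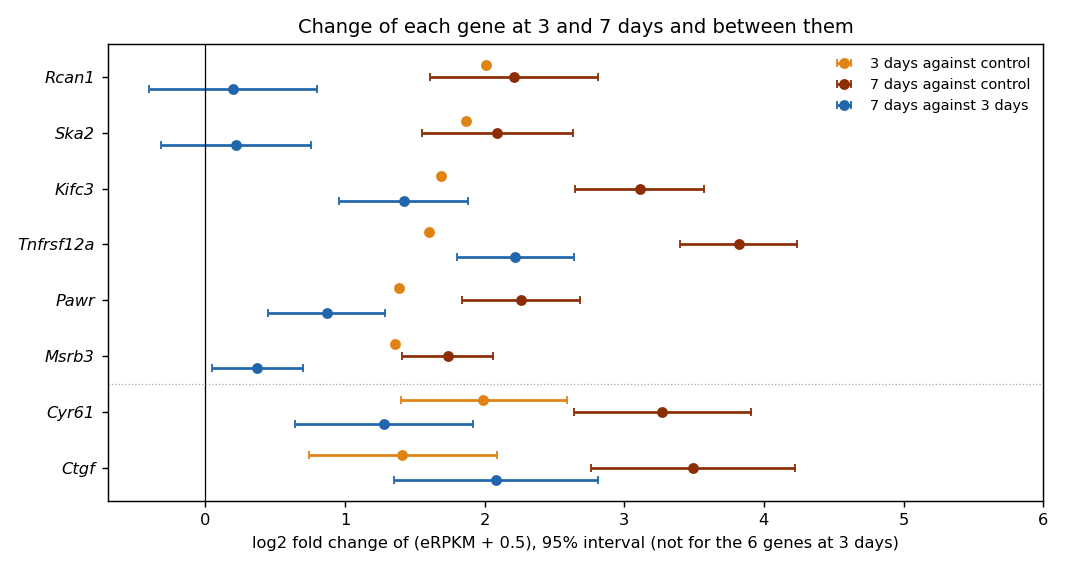
Log2 fold change of (eRPKM + 0.5) from limma for the 6 genes, Cyr61 and Ctgf (rows) in the 3 comparisons (colours), which are the 3-day and the 7-day livers with the controls and the 7-day with the 3-day livers. Lines are 95% intervals and are left out for the 6 genes at 3 days, where the values chose the genes. The step from 3 to 7 days has an interval that includes 0 for Rcan1 and Ska2 and lies between 1.80 and 2.64 for Tnfrsf12a.

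Cyr61 and Ctgf were measured beside the 6 genes as YAP targets. Cyr61 had 9.58, 14.3, 5.76 and 8.03 eRPKM in control livers 1 to 4, 26.8, 48.3, 53.4 and 27.5 at 3 days and 91.3, 91.1 and 90.5 at 7 days. Ctgf had 14.2, 8.59, 5.20 and 6.78 eRPKM in controls, 15.3, 31.3, 34.2 and 15.5 at 3 days and 99.5, 87.3 and 103 at 7 days. For both, 3-day livers 2 and 3 were high and livers 1 and 4 low. Exons of Gm15270 on the opposite strand cover 22.9% of the Ctgf exon bases, where reads cannot be told apart.

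The 3-day livers were ordered in much the same way by most of the 6 genes. Liver 1 was the lowest of the 4 for each of the 6 genes, for Cyr61 and for Ctgf. Ska2 and Pawr had the full order of Cyr61 and Ctgf, with liver 4 next, then liver 2 and liver 3 highest. Rcan1, Kifc3 and Msrb3 differed from it only in that liver 2 was the highest. Tnfrsf12a had liver 4 highest. Liver 1 was also the lowest 3-day liver for 37.9% of all tested genes, for 40.2% of the 482 genes with every 3-day liver above every control, and for 57.5% of the genes that rose at 7 days. The part of depth in this order was not tested.

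The table names and labels of 3-day livers 1 and 4 and of 7-day liver 2 end in MF, a suffix whose meaning is not given in the sources used here, and no control carries it. Livers 1 and 4 were the lowest pair of the 3-day group for Cyr61, Ctgf and each of the 6 genes but Tnfrsf12a. In the 8 livers without the suffix, which leaves 2 at 3 days and 2 at 7 days, the 3-day log2 fold changes were 2.39 for Rcan1, 2.01 for Ska2, 1.96 for Kifc3, 1.57 for Tnfrsf12a, 1.63 for Pawr and 1.48 for Msrb3. Leaving out the lowest 3-day livers had to raise these values for all but Tnfrsf12a, so they give no support. The steps from 3 to 7 days were then -0.22 for Rcan1, -0.08 for Ska2 and 0.24 for Msrb3, against 1.21 for Kifc3, 2.32 for Tnfrsf12a and 0.61 for Pawr. Of the last 3, Kifc3 (limma adjusted p = 0.00282) and Tnfrsf12a (limma adjusted p = 0.000477) passed and Pawr (limma adjusted p = 0.115) did not. This split was chosen after the values were seen.

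**Figure D3:**
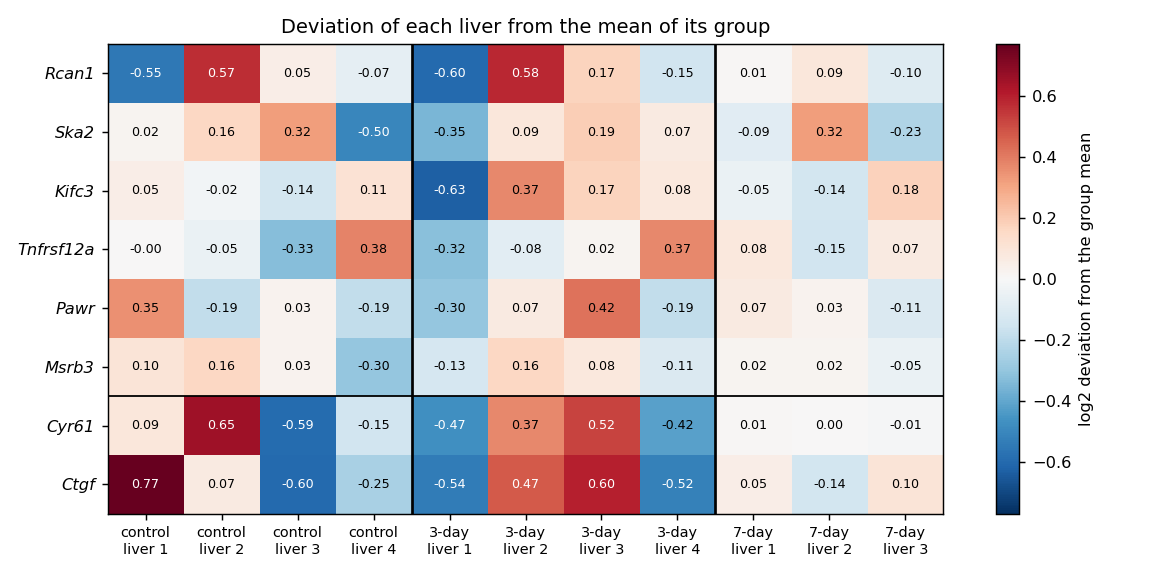
Deviation of each liver (columns) from the mean of its group in log2(eRPKM + 0.5) for the 6 genes, Cyr61 and Ctgf (rows). Red is above and blue below the group mean, and vertical lines part the groups. All 8 genes are below their group mean in 3-day liver 1, by 0.13 (Msrb3) to 0.63 (Kifc3), and at 7 days the widest deviations are those of Ska2, from -0.23 to 0.32.

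Covariation was measured on these deviations, since correlations over all livers would mostly restate the group differences. Over the 11 livers with group means removed, the highest of the 12 correlations of the 6 genes with Cyr61 or Ctgf was that of Pawr with Ctgf (Pearson r = 0.77, exact permutation p = 0.0553; Spearman rho = 0.71, exact permutation p = 0.0694). Of all tested genes, 4.24% had an r with Ctgf as high. For the pairs given next this share was 16.6% (Kifc3 with Ctgf), 14.8% (Msrb3 with Cyr61) and 14.7% (Rcan1 with Cyr61). Kifc3 with Ctgf had r = 0.59 (exact permutation p = 0.0584; rho = 0.64, p = 0.0347), and Msrb3 with Cyr61 had r = 0.63 (exact permutation p = 0.0940; rho = 0.75, p = 0.0463). Rcan1 with Cyr61 had r = 0.63 (exact permutation p = 0.141; rho = 0.61, p = 0.138).
Msrb3 with Ctgf had r = 0.60 (exact permutation p = 0.114) and Kifc3 with Cyr61 r = 0.53 (exact permutation p = 0.154). Pawr with Cyr61 had r = 0.42 (exact permutation p = 0.328). None of the 12 passed after Benjamini-Hochberg adjustment over the 12 pairs. The lowest adjusted values were 0.308 for r and 0.275 for rho (exact permutations within groups). Without the pair of livers farthest from the median of the target, which were controls each time, r was 0.81 for Pawr with Ctgf, 0.66 for Kifc3 with Ctgf, 0.72 for Msrb3 with Cyr61 and 0.65 for Rcan1 with Cyr61. Cyr61 and Ctgf themselves had r = 0.78 (exact permutation p = 0.0651; rho = 0.84, p = 0.0463; 0.86 without control livers 1 and 3).
All 12 values of r were above 0, but so were those of 64.9% of all tested genes with Cyr61 and of 61.0% with Ctgf. Tnfrsf12a stood at the low end, with r = 0.09 for Cyr61 (exact permutation p = 0.843; rho = 0.12, p = 0.785) and 0.08 for Ctgf (exact permutation p = 0.856; rho = 0.21, p = 0.603). Ska2 had r = 0.24 for Cyr61 (exact permutation p = 0.535; rho = 0.23, p = 0.571) and 0.15 for Ctgf (exact permutation p = 0.703; rho = 0.03, p = 0.956). For both genes r changed sign under some alternatives, as did those of Pawr with Cyr61 and of Rcan1 with Ctgf (the latter r = 0.21, exact permutation p = 0.630; rho = 0.28, p = 0.479). With the suffix MF removed as a term as well, the r of Pawr with Ctgf was 0.68, that of Msrb3 with Cyr61 0.54, that of Rcan1 with Cyr61 0.52 and that of Kifc3 with Ctgf 0.30, and in the 8 livers without it they were 0.58, 0.41, 0.35 and 0.31. Depth moved with Msrb3 in the same livers (r = 0.84, exact permutation p = 0.00521; rho = 0.71, p = 0.0440; adjusted over 9 relations 0.0469 and 0.208), and without control livers 2 and 4 that r was 0.55. The r of depth was 0.57 with Cyr61 (exact permutation p = 0.161, rho = 0.74) and 0.44 with Ctgf (exact permutation p = 0.328, rho = 0.61). Over the alternatives, removal of depth among them, the r of Msrb3 with Cyr61 ran from 0.35 to 0.86.

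The genes whose pattern over the 11 livers was most like that of each of the 6 were named by Pearson r on log2(eRPKM + 0.5), a description that includes the group differences. The 6 genes were chosen on part of these differences, so a likeness among them is partly built in. For Rcan1 they were Sac3d1 (r = 0.962), Tspan4 (0.961) and Tuba1b (0.955). Tspan4, a tetraspanin gene, had group means of 32.5, 65 and 64.9 eRPKM, level from 3 to 7 days like Rcan1. For Ska2 they were Msrb3 (0.979), the histone gene Hist1h3c (0.954) and Cdk1 (0.952), the kinase that drives entry into mitosis. Kifc3 was most like Jund (0.983), an AP-1 subunit gene, Tax1bp3 (0.981) and Tnfrsf12a (0.975).
Tnfrsf12a was most like Jund (0.986), Ccr3 (0.984) and Them6 (0.983). Ccr3 and Them6 shared its late gain, with means of 0.489, 5.0 and 28.1 eRPKM and of 2.35, 7.93 and 57.1 eRPKM in control, 3-day and 7-day livers. Pawr was most like Xrcc2 (0.982), a gene of recombination repair, Crim1 (0.982) and Ercc6l (0.970), and Msrb3 was most like Ska2 (0.979), Pawr (0.964) and Eri1 (0.961). With group means removed, r was 0.74 for Ska2 with Msrb3, 0.56 for Pawr with Msrb3 and 0.54 for Kifc3 with Tnfrsf12a. Over all 15 pairs of the 6 genes it ran from -0.46 (Tnfrsf12a with Msrb3) to 0.74, with a median of 0.42.

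A list of genes that work with or are related to each of the 6 was read in the same fit, 74 genes in all, of which 68 were tested. The list of Ska2 also holds its genomic neighbour Prr11. At 3 days limma called none of the 68 (16 at an unadjusted p under 0.05, beside 1718 of all 14240 tested, and 15 with limma-voom on recovered reads, which called none either). Their median log2 fold change was 0.06, against 0.02 for all tested genes. At 7 days 23 rose and 1 fell, where 18.0% of all tested genes rose and 5.77% fell, with a median of 0.55 against 0.26. With median-ratio size factors the counts were 18 and 4, and after quantile normalization 18 and 8. From 3 to 7 days 16 rose and 1 fell, beside 14% and 5.31% of all tested genes. For that step size factors gave 11 and 2, and quantile normalization 10 and 5.

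Of the 11 tested genes read beside Ska2, which are kinetochore genes and Prr11, 9 rose at 7 days, Prr11 among them. Of all tested genes 18.0% did. The median log2 fold change of the list was 1.78. At 3 days limma called none of the 11 (8 at an unadjusted p under 0.05), with a median of 0.96. Dsn1, of the MIS12 complex, rose by a log2 fold change of 2.75 (limma adjusted p = 0.000370) at 7 days and Ndc80, of the microtubule-binding NDC80 complex, by 2.63 (limma adjusted p = 0.000681). The other SKA subunits, Ska1 and Ska3, rose by 1.78 and 1.44 at 7 days. At 3 days their log2 fold changes were 0.68 (limma adjusted p = 0.439) and 0.18 (limma adjusted p = 0.864). Ska2, at 1.87, was chosen for its 3-day value, so a lower value of its partners there is partly built in. Ska1 was also near the floor, with means of 0.238 eRPKM in control and 0.73 in 3-day livers.
Spc24 and Spc25, also of the NDC80 complex, had 3-day log2 fold changes of 1.0 (limma adjusted p = 0.0712) and 1.39 (limma adjusted p = 0.107) and rose by 1.11 and 1.61 at 7 days. Nuf2, Nsl1 and the Ska2 neighbour Prr11 rose by 2.03, 2.26 and 1.89. Mis12, at 0.37 (limma adjusted p = 0.101), and Pmf1, at 1.38 (limma adjusted p = 0.0238), did not pass. With median-ratio size factors 7 of the 11 rose, and after quantile normalization 5.

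Markers of dividing cells (Mki67, Top2a, Ccnb1, Cdk1, Bub1 and Aurkb) rose at 7 days, as did Ska2 and genes of this list. They summed to 4.28 to 18.0 eRPKM in controls, to 13.1, 66.8, 102 and 40.3 in 3-day livers 1 to 4 and to 105 to 161 at 7 days. None of the 6 passed at 3 days, although all 6 had an unadjusted p under 0.05 (median log2 fold change 1.97), and all 6 passed at 7 days (median 3.68). From 3 to 7 days their median log2 fold change was 1.62, with no call by limma, 5 at an unadjusted p under 0.05 and 3 calls by limma-voom, beside 0.22 for Ska2. Liver 1 was the lowest 3-day liver for these markers and for Ska2. Its marker sum of 13.1 eRPKM lay within the control range. Its Ska2 value of 6.77 eRPKM lay above all controls, as the choice of the gene required. The part of dividing cells in the change of Ska2 was not tested.

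Of the 11 tested genes of the TWEAK pathway read beside Tnfrsf12a, 4 rose and 1 fell at 7 days, against 18.0% and 5.77% of all tested genes. At 3 days limma called none (2 at an unadjusted p under 0.05), with a median of -0.03. The 4 that rose were 3 of noncanonical NF-kappaB signalling, Nfkb2 (log2 fold change 1.72, limma adjusted p = 0.00122), Relb (1.36, adjusted p = 0.00460) and Map3k14 (1.29, adjusted p = 0.00155), and Cd163 (2.84, adjusted p = 7.23e-05), a macrophage receptor for TWEAK. Chuk, which encodes the kinase downstream of Map3k14, fell from 88.7 eRPKM (SD 4.72, n = 4) in controls to 39.9 (SD 4.09, n = 3). Traf3, which restrains Map3k14, had a log2 fold change of 0.73 at 7 days (limma adjusted p = 0.0330) and rose from 3 to 7 days by 0.99 (limma adjusted p = 0.00827).
Birc2, at 0.36 (limma adjusted p = 0.117), Birc3, at 0.43 (adjusted p = 0.140), and Traf5, at -0.01 (adjusted p = 0.982), did not pass at 7 days. After quantile normalization 2 of the 11 rose and 1 fell. Macrophage markers moved with this list and with the step of Tnfrsf12a. The 5 of 6 in the table summed to 123 to 247 eRPKM over control, 143 to 275 over 3-day and 548 to 573 over 7-day livers. At 7 days 4 of the 5 rose, and their part in the result was not tested.

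**Figure D4:**
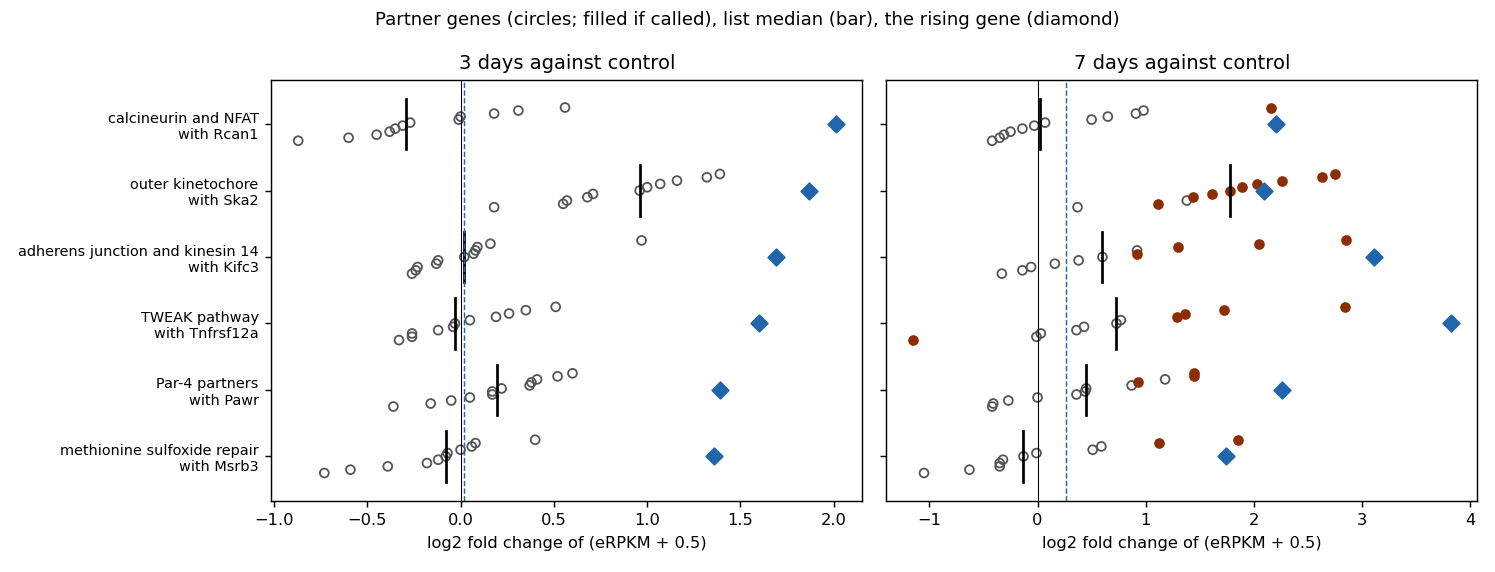
Log2 fold change of (eRPKM + 0.5) of the tested partner genes of each of the 6 genes (rows) at 3 days (left) and 7 days (right) against control. Circles are single genes, filled where called by limma, bars are list medians, diamonds are the gene the list belongs to, and the dashed line is the median of all tested genes (0.02 and 0.26). No circle is filled at 3 days, and the list of Ska2, kinetochore genes and Prr11, has the highest median at both times.

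Of the 11 tested genes read beside Kifc3, 4 rose at 7 days (18.0% over all tested genes) and none was called at 3 days (1 at an unadjusted p under 0.05). Plekha7, which links junctions to microtubules, rose from 1.89 eRPKM (SD 0.364, n = 4) in controls to 9.34 (SD 1.21, n = 3). Its log2 fold change was 2.05 (limma adjusted p = 0.000605) at 7 days and 0.08 (limma adjusted p = 0.944) at 3 days. Ctnna1, alpha catenin, rose by a log2 fold change of 0.92 (limma adjusted p = 0.00426) and the microtubule crosslinker Mtcl1 by 1.30 (limma adjusted p = 0.00210). Kifc5b, a kinesin gene with close copies, so that its reads are uncertain, rose by 2.85 (limma adjusted p = 0.000267).
The core junction genes Ctnnb1, Cdh1 and Ctnnd1 had log2 fold changes of -0.14, -0.06 and 0.60 at 7 days and did not pass (limma adjusted p = 0.484, 0.888 and 0.0302). With median-ratio size factors 3 of the 11 rose. After quantile normalization 5 rose and 1 fell.

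Of the 12 tested genes read beside Rcan1, 1 rose at 7 days against control (18.0% over all tested genes) and none was called at 3 days (2 at an unadjusted p under 0.05). It was Rcan3, another regulator of calcineurin, which averaged 1.52 eRPKM (SD 0.586, n = 4) over controls, 1.49 (SD 0.519, n = 4) over 3-day and 8.24 (SD 0.305, n = 3) over 7-day livers. Its log2 fold change was -0.01 at 3 days and 2.16 at 7 days (limma adjusted p = 0.000119). Rcan1, at 2.01 at 3 days, was chosen for that value, so the contrast at 3 days is partly built in. Rcan2 had 0.56 (limma adjusted p = 0.714) and 0.98 (limma adjusted p = 0.211) at the same times.
The calcineurin subunit gene Ppp3r1 had a log2 fold change of 0.07 at 7 days (limma adjusted p = 0.843) and Ppp3ca 0.50 (limma adjusted p = 0.109). Nfatc3, a transcription factor that calcineurin activates, had -0.25 (limma adjusted p = 0.177). From 3 to 7 days Nfatc1, another NFAT factor, rose by 1.30 (limma adjusted p = 0.00383) and Cabin1, a calcineurin inhibitor, by 1.10 (limma adjusted p = 0.00945). The list median at 7 days was 0.02, and it was -0.25 with median-ratio size factors and -0.22 after quantile normalization.

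Of the 12 tested genes read beside Pawr, 3 rose at 7 days, a share near the 18.0% over all tested genes, and none was called at 3 days (1 at an unadjusted p under 0.05). Prkci, an atypical protein kinase C, rose from 9.89 eRPKM (SD 2.18, n = 4) in controls to 27.3 (SD 0.994, n = 3), a log2 fold change of 1.45 (limma adjusted p = 0.000246). Dapk3, a death-associated kinase that Par-4 binds, rose by 1.45 (limma adjusted p = 0.00538) and Akt1, a survival kinase, by 0.93 (limma adjusted p = 0.00887). Hspa5, the chaperone GRP78, had -0.41 (limma adjusted p = 0.212), Sqstm1 -0.42 (adjusted p = 0.0767), Spsb2 0.00 (adjusted p = 0.988) and Prkcz, the other atypical protein kinase C, 0.45 (adjusted p = 0.263).

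Of the 11 tested genes of methionine sulfoxide repair read beside Msrb3, 2 rose at 7 days, which is the share of all tested genes (18.0%), and none was called at 3 days (2 at an unadjusted p under 0.05). With median-ratio size factors 1 rose and 2 fell, and after quantile normalization 2 rose and 4 fell. The 2 that rose with the deposited scaling were oxidases that form methionine sulfoxide on actin, Mical2 (log2 fold change 1.85, limma adjusted p = 6.10e-05) and Mical1 (1.12, adjusted p = 0.00384), so they act opposite to the repair enzymes. The other reductases did not share the 7-day rise of Msrb3. Msrb1, the most abundant, had 127 eRPKM (SD 36.2, n = 4) in controls and 79.9 (SD 4.90, n = 3) at 7 days, a log2 fold change of -0.63 (limma adjusted p = 0.0194). Msrb2 and Msra had -0.13 (adjusted p = 0.536) and -0.35 (adjusted p = 0.0347) in the same limma fit, and neither passed.
The thioredoxin system that returns electrons to them, Txn1 and Txnrd1, had -0.35 (limma adjusted p = 0.198) and 0.59 (limma adjusted p = 0.0177). At 3 days Msrb1, Msrb2 and Msra stood at 0.00, 0.08 and 0.06. Msrb3 stood at 1.36, the value it was chosen for, so this contrast is partly built in.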

How the data were processed

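Bulk RNA-seq of 11 mouse livers was used. Per the labels' processing notes and the study's methods, the authors aligned read pairs to mm9 with TopHat2 2.0.8, counted reads on genes and deposited them as eRPKM, an RPKM per gene and liver. featureCounts 1.4.5-p1 is listed in the notes with no role. From DESeq2 the authors also deposited, for 7 days against control, a mean signal, a log2 ratio of the groups and an adjusted p-value, none of which was used. Of 20893 rows, 4 with a repeated symbol were left out. Each of the 177509 values above 0 (100%) lay within 0.1 of a whole number of reads, which gave the depth.

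A gene was tested if at least 3 libraries had at least 0.5 eRPKM. The fit was made with limma 3.58.1 (R 4.3.3; eBayes with trend) on log2(eRPKM + 0.5), all groups together with no covariate. Calls needed an absolute log2 fold change above 0.5 and an adjusted p (Benjamini-Hochberg) under 0.01. The steps were tested on simulated data. Single genes had exact two-sided permutation tests over 35 splits, and covariation had 3456 permutations within groups. The 25 alternatives were pseudocounts, filters, scalings, covariates, a replicate block, limma-voom on recovered reads, libraries with more Xist than Ddx3y alone, the compared groups alone, leaving out each of the 11 livers and, added after seeing the data, the label suffix MF as a covariate and the livers without it.

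The 6 genes, the partner and marker lists and the tests were chosen with earlier results of these data known. Besides the 6 genes, Cyr61, Ctgf and Yap1, the text names partner genes that were called, up to 3 more per list with the highest mean, the 3 genes most like each of the 6 (mean of at least 1 eRPKM) and the 6 next outside the threshold. Rcan2, Prkcz, Msra, Msrb2 and the overlapping genes were named after their values were seen. Exon overlaps are from GENCODE M1, and not all of them are reported here. Tables and figures were made in Python 3.11.15 with numpy 2.4.6, pandas 2.3.3, matplotlib 3.10.9 and, for the exact tests, scipy 1.17.1. Single-cell, ChIP-seq and other data were not analysed here.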

Additional observations from a re-analysis of the deposited data

Results flagged for a closer look

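The 3-day liver 1 held 2658114 reads on genes, while the other 3 livers of its group held between 3624237 and 3679166. Its gap to the nearest was 0.946 of the whole range of the group, past Dixon's limit for 4 samples. It was the only one of 20 sets of 4 livers past that limit (the 6 genes, Cyr61, Ctgf, Yap1 and depth, in control and 3-day livers), and chance flags about 1 in 20. None of the 6 genes passed it in either group. Effects also differed between the times. The 7-day effect exceeded the 3-day effect by the limma test of the difference itself. On the log2 scale the difference was 1.42 for Kifc3, 2.22 for Tnfrsf12a, 0.87 for Pawr, 1.28 for Cyr61 and 2.08 for Ctgf. For each of the 5 genes all 3 livers at 7 days lay above all 4 at 3 days, as for 31.3% of all tested genes.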

How the results depend on the processing

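The 3-day count of 6 genes was 12 with median-ratio size factors, 16 with log2 Xist as a covariate, 10 with the suffix MF as a covariate and 41 in the livers without it (both chosen after seeing the data), 3 without the filter and 3 with a replicate block, 1 with log2 depth as a covariate, 1 with limma-voom on recovered reads and 0 with the compared groups alone. Leaving out one liver at a time gave 0 to 54. The 7-day count of 3381 was 1676 with depth as a covariate, 2129 in the libraries with more Xist than Ddx3y, and 2054 to 3681 without one liver. The count of 2752 from 3 to 7 days was 1679, 1424 and 1411 to 3681 in the same order, and 883 in the livers without the suffix. For single genes, the step of Rcan1 from 3 to 7 days (0.20) turned to -0.05 with size factors and was 0.61 after quantile normalization, and that of Ska2 to -0.01 with size factors or depth and to -0.27 after quantile normalization. In the livers without the suffix they were -0.22 and -0.08. At 3 days 86 of the 150 fold changes of the 6 genes under alternatives were no longer called, while their direction was fixed by the choice of the genes. At 7 days all 150 kept direction and call. The cause of these shifts was not tested, beyond the fewer samples of the fits that leave livers out. The 12 correlations above 0 became 8 to 12 without one liver 10 with either scaling, 11 with the suffix removed as a term and 8 in the livers without it. Same-numbered livers deviated together in only part of the pairs (correlations of -0.222 to 0.269), so the samples were not paired by number. With 3 or 4 livers per group this cannot exclude a batch or litter shared by livers of 1 number. The replicate block gave 2719 calls at 7 days and 1977 from 3 to 7 days. Depth limits Ska2 most, at 5 reads in control liver 4.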
